A study of Mus musculus with 30 samples.

Results

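Macrophages sorted from glioma-bearing mouse brain with little CCR2 reporter and without detected glioma-derived GFP (GFPneg CCR2low macrophages) were compared with Ly6Chigh monocytes from blood. The comparison rested on 7 of the 30 samples of the series, taken by their labels alone: 4 libraries of CCR2low macrophages from mice 22, 23, 24 and 26, and 3 libraries of Ly6Chigh monocytes from mice 22, 23 and 24. Every mouse was a heterozygous C57BL6.CCR2RFP/WT knock-in of 12 to 18 weeks, in which 1 copy of Ccr2 is replaced by the red reporter RFP, and each carried an intracranial tumor of GL261, a mouse glioma cell line, here with GFP anchored in its membranes. No tumor-free mouse entered the comparison. Blood cells were sorted as CD45+ CD115+ Ly6Chigh with CD11c low or absent, and brain cells as CD45high CD11bhigh, a gate set to leave out microglia, followed by F4/80, Ly6C, RFP and GFP. The brain was digested with collagenase and dispase at a raised temperature and spun through Percoll, whereas blood had only its red cells lysed, so compartment, cell identity and handling cannot be told apart in these values. The labels give brain as the tissue of the blood samples too, and the cell type named in each label was used here.

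Ly6Chigh, or classical, monocytes leave the bone marrow through the chemokine receptor CCR2, circulate briefly, and enter inflamed tissue and tumors. There they lose Ly6C and CCR2 and take on macrophage functions: phagocytosis, lysosomal degradation, complement production, presentation of peptides on MHC class II and secretion of chemokines that call in further leukocytes. Microglia, the resident macrophages of the brain, have a separate embryonic origin and a transcript signature of their own, which marrow-derived macrophages can acquire in part. In bulk RNA from sorted cells, more cells of a type and more RNA per cell of a transcript cannot be told apart.

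The counts on genes ran from 1695446 to 4394847 in the Ly6Chigh monocyte libraries and from 1799420 to 3809705 in the CCR2low macrophage libraries, and synthetic ERCC spike-in RNAs took 0.29% to 1.26% of reads. Libraries of a population correlated across genes at a Spearman rho of 0.849 to 0.947, and each pair differed by more than counting noise (7.71 to 24.1 as chi-square over its degrees of freedom), so all were kept as separate replicates. Xist, the transcript that silences an X chromosome, reached 20 CPM in all 6 replicates of mouse 26 and in no replicate of the other mice, while Y-linked genes reached it in every replicate of mice 22, 23 and 24. Mouse 26 entered this comparison through macrophages only, so the population compared with blood included an animal that the blood population lacked. By these transcripts the populations also differed in sex, since mouse 26 alone had Xist. The paper reports as many male as female mice, which these transcripts do not show.

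Levels are given as CPM, counts relative to the library size after TMM scaling (edgeR's trimmed mean of M-values). Each gene was tested with edgeR's quasi-likelihood method, and "called" means that its p, adjusted by the Benjamini-Hochberg method over all genes tested, lay under 0.05. Of 11566 genes tested, 1628 (14.1%) were higher in CCR2low macrophages and 704 (6.09%) were lower, 20.2% in either direction. Counts of called list members below are to be read beside these shares. In 1460 of the higher genes and 684 of the lower genes the 2 populations did not overlap in any library, against 21.2% and 14.2% of all tested genes without overlap in that direction. The higher genes were also the larger differences: 1301 exceeded 4-fold against 293 of the lower genes, and 459 of the higher genes had no count in any Ly6Chigh library while 5 of the lower genes had none in any macrophage library. Of all genes tested, 805 had no count in Ly6Chigh libraries and 15 none in macrophage libraries, and a gene could pass the filter on low counts through any of the 8 populations. Scaling to the ERCC spike-ins in place of TMM left 504 higher and 87 lower genes, so that 85.3% of calls were higher instead of 69.8%, and moved the median log2 difference of all genes from 0.16 to 0.01. Some other choices lowered that share. It was 51% where 10 counts were required in every compared library (515 higher and 494 lower). It was 55.6% with a block of the 3 shared mice, and 60.3% in a fit of the 7 libraries alone (1701 higher and 1118 lower). DESeq2, another count method, raised it. The share was 72.9% with DESeq2 size factors in the edgeR fit and 73.9% with the DESeq2 Wald test (2200 higher and 779 lower). Leaving out the Ly6Chigh library of mouse 23 or of mouse 24 reduced the higher genes to 1039 and 1042. The p-values rest on a spread estimated over 28 replicates of 8 populations, in which replicates of the same mouse count as independent.

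**Figure D1:**
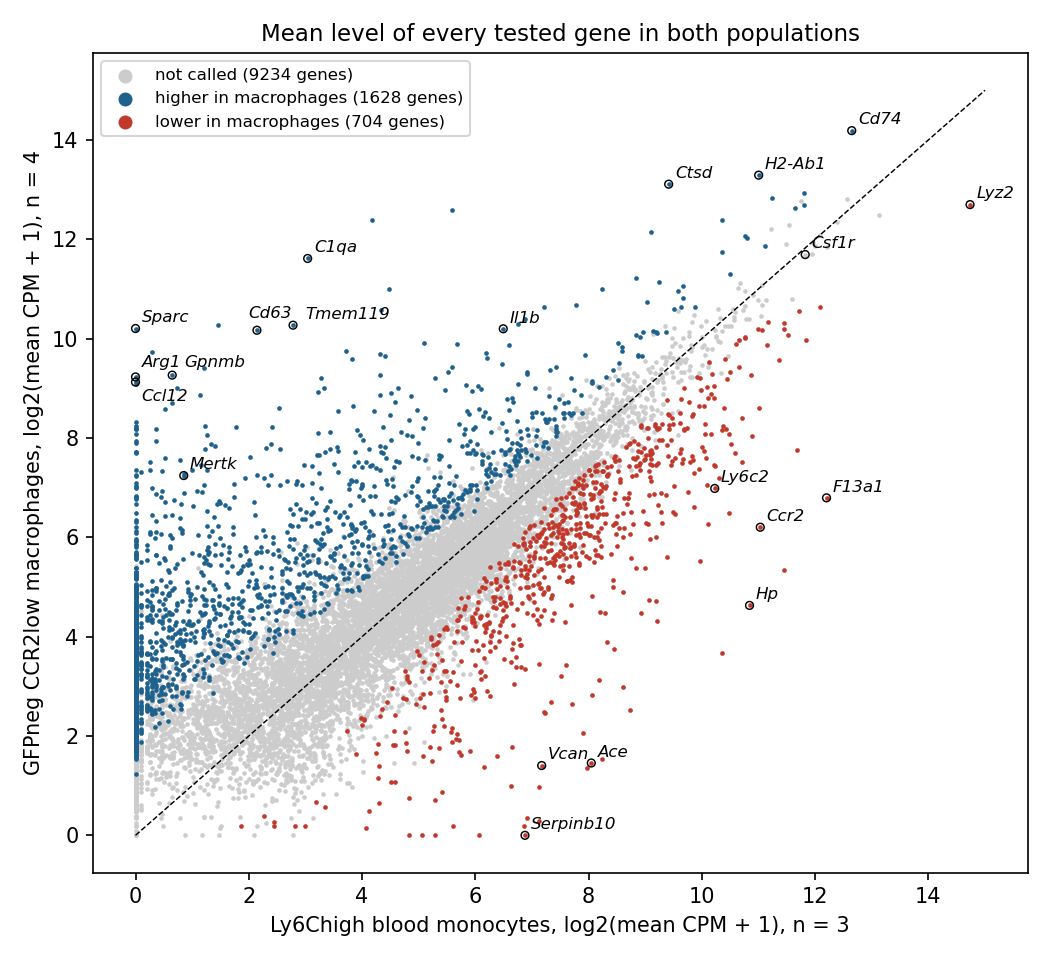
Mean level of each of the 11566 tested genes in Ly6Chigh blood monocytes (x axis, mean of 3 libraries) and in GFPneg CCR2low macrophages (y axis, mean of 4 libraries), both as log2(mean CPM + 1), with the line of equality dashed. The 1628 higher genes (blue) include a column at 0 on the x axis, the genes with no count in blood, and the 704 lower genes (red) have few counterparts at 0 on the y axis.

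The genes that define the sort behaved differently from each other. Ccr2 (chr9:124101950-124113557, plus strand, GRCm38), whose product the reporter follows, was at 1907, 2368 and 2001 CPM in the Ly6Chigh libraries of mice 22, 23 and 24 and at 62.6, 82.2, 32.6 and 113 CPM in the macrophage libraries of mice 22, 23, 24 and 26. The populations did not overlap, and the difference of 28.8-fold (log2 -4.85 ± 0.49 SE, adjusted p = 5.91e-08) was in the direction of the labels. Ly6c2, which encodes the antigen used to gate monocytes, was 9.53-fold lower (126 ± 37.0 against 1198 ± 200.1 CPM, SD, n = 4 and 3, adjusted p = 1.57e-05), although its reads can be shared with the near-identical Ly6c1. Ly6c1 itself, also expressed by endothelial cells, was higher at 0 to 111.8 CPM against 0.582 to 1.13 CPM (adjusted p = 0.00722), a call lost with ERCC scaling. Ptprc, encoding CD45, was 2.37-fold lower (684 ± 127 against 1617 ± 485 CPM, adjusted p = 0.000207), also without a call under ERCC scaling (adjusted p = 0.423). Itgax, encoding the CD11c that the blood gate excluded, was 16.4-fold higher (350 ± 151 against 21.4 ± 20.6 CPM, adjusted p = 3.23e-05). Csf1r, which encodes the CD115 used in the blood gate, did not pass the test (3307 ± 737 against 3627 ± 227 CPM, adjusted p = 0.771), nor did Adgre1, encoding F4/80, or Itgam, encoding CD11b (adjusted p = 0.165 and 0.627).

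The classical monocyte program was lower almost throughout. Of 22 genes tested from a list of classical monocyte genes, 21 were lower and none higher, with a median log2 difference of -3.26 beside 0.16 over all tested genes, and 14 were called with ERCC scaling. Plac8, a monocyte transcript linked to microbial killing, was at 1893, 1819.7 and 1319.7 CPM in blood and at 126, 233, 269 and 95.1 CPM in macrophages. Each macrophage library lay below each blood library (9.26-fold, adjusted p = 1.64e-06). Hp, haptoglobin, which binds free hemoglobin, was 76.6-fold lower (23.7 ± 12.0 against 1834 ± 697 CPM, adjusted p = 8.39e-08). Vcan, the matrix proteoglycan versican, was at 141, 190 and 98.1 CPM in blood and at 1.72, 2.73, 0 and 2.14 CPM in macrophages (81.1-fold, adjusted p = 0.00176).

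Lyz2, lysozyme, was abundant in macrophages at 3756 to 9784 CPM but was 4.10-fold below the 19711 to 33302 CPM of blood (adjusted p = 8.37e-05). F13a1, coagulation factor XIII A, differed widely between macrophage libraries, at 76.3, 37.1, 13.2 and 313 CPM in mice 22, 23, 24 and 26, all below the 4240 to 5010 CPM of blood (43.0-fold, adjusted p = 0.00119). Fn1, fibronectin, was also lowest in mouse 24 at 30.2 CPM and highest in mouse 26 at 538 CPM, against 1479 to 5284 CPM in blood (15.3-fold, adjusted p = 0.00679). With ERCC scaling Lyz2 and Fn1 were not called. The exception in the list was Thbs1, thrombospondin 1, which was not called: the macrophages of mouse 26 had 621 CPM and the other three 22.96 to 69.95 CPM, beside 28.8 to 38.5 CPM in blood (adjusted p = 0.365).

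Genes of Ly6Clow patrolling monocytes, the blood population into which Ly6Chigh monocytes can also convert, were lower in CCR2low macrophages as well. Of 14 tested, 10 were lower and none higher (median log2 difference -2.01), and 4 were called with ERCC scaling. Ace, angiotensin-converting enzyme (chr11:105967945-105989964, plus strand), was at 383, 104 and 304 CPM in blood and at 2.87, 2.5, 0 and 1.6 CPM in macrophages, a difference of 143-fold (adjusted p = 4.47e-06). Adgre4 and Treml4, surface receptors of monocytes, were 30.8-fold and 23.3-fold lower (adjusted p = 5.33e-06 and 6.2e-05), and Itgal, the LFA-1 alpha chain, 2.88-fold lower (adjusted p = 0.000892). Nr4a1, the nuclear receptor on which patrolling monocytes depend, was at 134 to 437 CPM against 357 to 817 CPM and was not called (adjusted p = 0.0945). It was called lower without the macrophages of mouse 26 (adjusted p = 0.0304) and with the mouse number as a block (adjusted p = 2.79e-05).

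Ranked by the gap between populations, the lower genes with the widest separation were mostly ones nearly absent from macrophages. Serpinb10 (chr1:107529003-107549271, plus strand), an intracellular protease inhibitor of blood cells, was at 113, 119 and 118 CPM in blood and had no count in any macrophage library, which makes it at least 393-fold lower against a floor of 3 counts over the 4 libraries. Skint3, Cyp2ab1 and S1pr5, the last a sphingosine-1-phosphate receptor of patrolling monocytes and NK cells, were also at 0 in all 4 macrophage libraries and at least 128-fold, 109-fold and 222-fold lower. Nxpe4, Lyz1, Galnt9 and Arhgef37 were at 0 to 3.87 CPM in macrophages against 72.0 to 411 CPM in blood. Cd300lg and Ptgir, the prostacyclin receptor, held 1 and 2 counts in all macrophage libraries together, and their macrophage-to-blood ratios were 0.00078 (95% counting interval 2e-05 to 0.00436) and 0.00141 (0.00017 to 0.0051). Such intervals cover counting error only, since the reads carry no molecular identifiers.

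**Figure D2:**
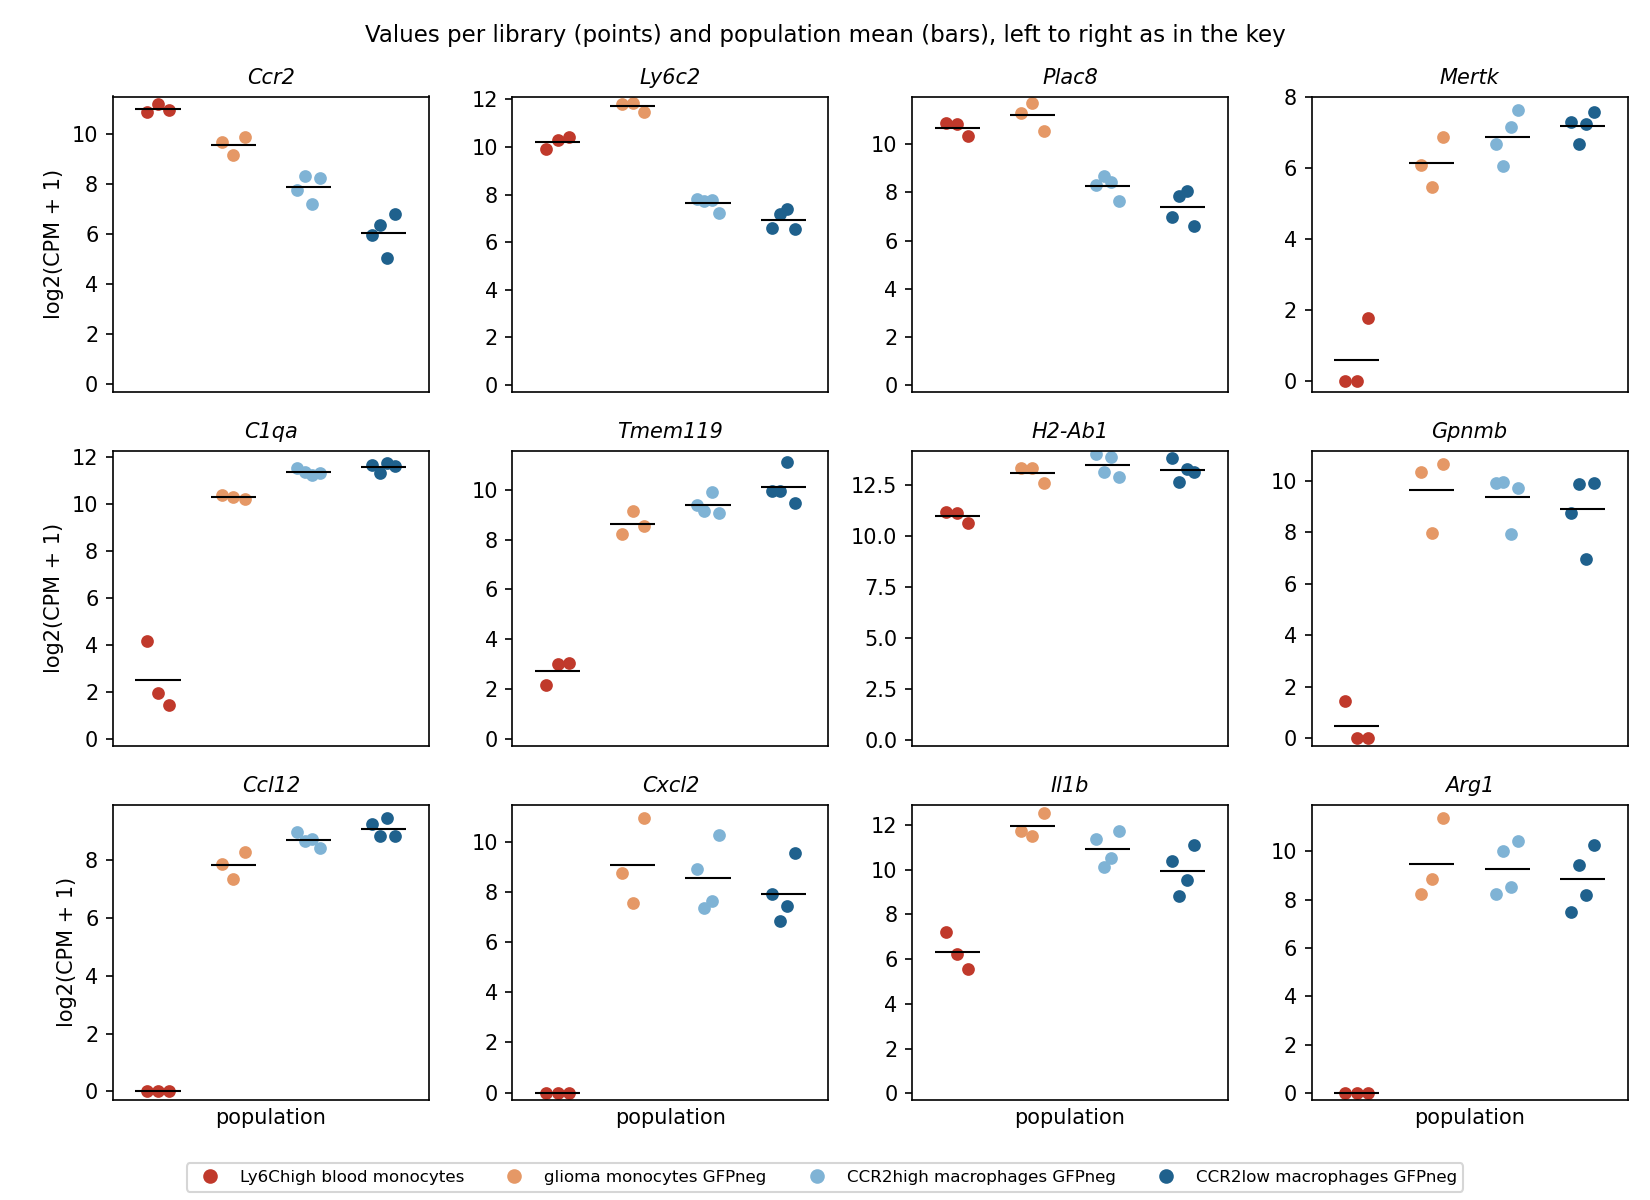
Values of 12 genes in every library of 4 populations, as log2(CPM + 1) on the y axis: Ly6Chigh blood monocytes, GFPneg glioma monocytes, GFPneg CCR2high macrophages and GFPneg CCR2low macrophages from left to right, with the mean of the log values as a bar. Ccr2 is lower in each population than in the one to its left, Ly6c2 and Plac8 are high in glioma monocytes, and the remaining 9 genes lie above the blood libraries in each glioma population.

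Core macrophage genes were higher in part. Mertk, the receptor with which macrophages engulf apoptotic cells, was at 0, 0 and 2.41 CPM in blood and at 156, 102, 152 and 192 CPM in macrophages (125-fold, adjusted p = 6.01e-08). Fcgr1, the high-affinity IgG receptor CD64, was 2.12-fold higher (320 ± 68.9 against 151 ± 32.4 CPM, adjusted p = 0.000808), and Fcgr4, another activating IgG receptor, 6.16-fold higher (adjusted p = 3.46e-06). Cd14, the lipopolysaccharide co-receptor, was 8.18-fold higher (adjusted p = 0.00157). Cd68, a lysosomal membrane protein often used to mark macrophages, did not differ beyond its spread (1130 ± 145 against 1303 ± 176 CPM, adjusted p = 0.543). In all, 7 of 15 tested genes were higher and none lower (median 0.61), and only 1 was called with ERCC scaling. Fcgr3, also among the 7, lost its call when mouse 26 of the macrophages or mouse 22 or 24 of the monocytes was left out (adjusted p = 0.0942 to 0.156).

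Microglial genes were among the most different, although the CD45high CD11bhigh gate was set to remove microglia. Of 20 homeostatic microglia genes tested, 14 were higher and none lower, with a median log2 difference of 4.79, and 11 were called with ERCC scaling. Tmem119 (chr5:113793729-113800516, minus strand), a membrane protein used to tell microglia from blood-derived macrophages, was at 3.40, 6.98 and 7.24 CPM in blood and at 986, 995, 2246 and 709 CPM in macrophages (203-fold, log2 7.67 ± 0.50 SE, adjusted p = 1.17e-10). Microglia are not among the samples analysed here, so how far these levels stand from theirs was not tested. Sparc (chr11:55394500-55423183, minus strand), a secreted matrix-binding glycoprotein of microglia and vessels, had no count in blood and 753 to 2123 CPM in macrophages, at least 3157-fold higher. Olfml3, a secreted olfactomedin-like protein of microglia (chr3:103722222-103738001, minus strand), had 3 counts in all blood libraries and 591 to 1261 CPM in macrophages, a ratio of 2305 (95% counting interval 789 to 11180).

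P2ry12, the ADP receptor of ramified microglia, was at 520, 631, 1806 and 250.2 CPM in the macrophages of mice 22, 23, 24 and 26 and at 11.3 to 35.5 CPM in blood (40.5-fold, adjusted p = 0.000246). Mouse 24 was the highest and mouse 26 the lowest, and Gpr34, Slc2a5, Siglech and Sall1 had the same highest and lowest mouse. Sall1, the transcription factor that maintains microglial identity, was at 13.9 to 85.1 CPM with no count in blood (at least 93.1-fold). The summed level of the whole list was 14640 to 29590 CPM in macrophages, with the highest value in mouse 24, against 8515 to 8719 CPM in blood, 9895 to 13760 CPM in GFPneg glioma monocytes and 10720 to 18630 CPM in GFPneg CCR2high macrophages. Cx3cr1, the fractalkine receptor that both cell types express, was not called (1031 ± 294 against 713 ± 199 CPM, adjusted p = 0.331).

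Markers of border-associated macrophages, the population of the meninges and perivascular spaces, gave a mixed picture in which 3 of 12 were higher (Pf4, Ms4a7 and Stab1), 3 lower (F13a1, Clec12a and Clec10a) and 6 not called. Among those not called, Lyve1 was at 0 to 5.01 CPM, Cd163 at 0 to 2.84 CPM and Folr2 at 1.42 to 12.3 CPM in macrophages. Pf4 was called higher (adjusted p = 0.0034) and stood at 160 CPM in mouse 26. Stab1, a scavenger receptor, was at 75.2, 70.6, 73.3 and 398 CPM in mice 22, 23, 24 and 26 against 0 to 2.41 CPM in blood (127-fold, adjusted p = 0.000247). Mrc1, the mannose receptor CD206, was likewise highest in mouse 26 at 374 CPM with 64.9 to 87.0 CPM in the others, beside 5.67 to 43.2 CPM in blood, and was not called (adjusted p = 0.0574). With the mouse number as a block, Mrc1 (adjusted p = 0.0132) and Folr2 (adjusted p = 0.0389) passed the test as higher, which brought the list to 5. Both genes also passed as higher with the DESeq2 Wald test. Clec12a and Clec10a lost their calls with ERCC scaling.

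Antigen presentation through MHC class II, the route by which macrophages show peptides to CD4 T cells, was higher from molecules already abundant in blood. Of 13 genes, 9 were higher and none lower (median log2 difference 2.03). H2-Ab1 (chr17:34257689-34269419, plus strand), encoding the I-A beta chain, was at 2293, 2270 and 1591 CPM in blood and at 14635, 6349, 9940 and 9148 CPM in macrophages (4.88-fold, adjusted p = 9.93e-05). H2-Eb1, the I-E beta chain, was 8.17-fold higher (4505 ± 1030 against 552 ± 53.3 CPM, adjusted p = 1.57e-06), and Cd74, the invariant chain that guards the peptide groove, 2.91-fold higher (18653 ± 5557 against 6411 ± 1377 CPM, adjusted p = 0.00493). Each macrophage library exceeded each blood library for these 3 genes. Ciita, the coactivator that drives the class II genes, was not called (99.2 ± 30.1 against 79.4 ± 12.4 CPM, adjusted p = 0.66). With ERCC scaling 3 of the 13 were called, H2-Eb1 among them, and H2-Ab1 and Cd74 were not.

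H2-Oa and H2-Ob, whose product DO restrains peptide loading and is typical of B cells, were higher as well, H2-Ob without a call when blood mouse 23 or 24 was left out (adjusted p = 0.0518 and 0.0513) or with ERCC scaling. H2-Oa was at 171, 114, 254 and 43.3 CPM in macrophages against 3.49 to 3.97 CPM in blood (37.7-fold, adjusted p = 1.53e-05). Markers of B and plasma cells were called higher in 4 of 9 tested genes and summed to 788 to 4807 CPM in macrophages, highest in mouse 24, against 596 to 837 CPM in blood. Cd79a, part of the B cell receptor, was at 168, 185, 455 and 34.2 CPM in mice 22, 23, 24 and 26, the same order of mice as H2-Oa for the highest and lowest. The part of B cells in the levels of H2-Oa and H2-Ob was not tested. The B and plasma cell count was 7 with the mouse number as a block, 2 with ERCC scaling and 1 or 2 without macrophage mouse 24 or any of the 3 blood libraries, and Ighg2c, an immunoglobulin constant region at 137 to 453 CPM with no count in blood, was among the 10 higher genes with the widest gap (at least 637-fold).

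MHC class I presentation differed less. Of 14 genes, 7 were higher and none lower, with a median log2 difference of 0.84. H2-K1 was 2.48-fold higher (4309 ± 489 against 1739 ± 130 CPM, adjusted p = 0.000661) and B2m, the shared light chain, 1.98-fold (6369 ± 1071 against 3213 ± 395 CPM, adjusted p = 0.0065). H2-D1 was not called (7234 ± 1128 against 6083 ± 664 CPM, adjusted p = 0.686), and class I genes share near-identical stretches whose reads can be split between them. The count was 4 without macrophage mouse 22 or blood mouse 22 or 23, and 0 with ERCC scaling.

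The promoters of H2-Aa and H2-Eb1 are shown because class II genes moved together and share a Y box, a CCAAT-type element read here as ATTGG on either strand (capitals). The sequences are the 250 bases before each start in RefSeq, build GRCm38.p6, written along the gene's own strand: H2-Aa at chr17:34287824-34288073 on the minus strand and H2-Eb1 at chr17:34305617-34305866 on the plus strand. Of the 13 class II genes, 10 had a promoter in the table and 8 of these held the letters, which 33.8% of all 32851 promoters of the same length also hold. The first match begins 48 bases before the start of H2-Aa and 59 bases before that of H2-Eb1, which holds a further match on the opposite strand.
H2-Aa: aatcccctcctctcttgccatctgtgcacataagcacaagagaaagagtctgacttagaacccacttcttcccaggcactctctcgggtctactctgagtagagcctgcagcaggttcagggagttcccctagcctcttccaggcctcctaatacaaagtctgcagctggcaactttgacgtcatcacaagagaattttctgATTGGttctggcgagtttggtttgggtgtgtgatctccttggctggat
H2-Eb1: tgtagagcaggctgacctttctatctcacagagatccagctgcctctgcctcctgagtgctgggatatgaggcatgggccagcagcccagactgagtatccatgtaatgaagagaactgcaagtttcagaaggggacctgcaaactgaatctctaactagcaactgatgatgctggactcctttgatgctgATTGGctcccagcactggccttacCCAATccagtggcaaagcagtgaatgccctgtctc

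Complement genes were higher at high abundance. The chains of C1q, which opens the classical pathway and tags synapses and debris for removal, were nearly silent in blood: C1qa (chr4:136895917-136898803, minus strand) was at 17, 2.91 and 1.76 CPM there and at 3293, 2608, 3498 and 3130 CPM in macrophages (467-fold, log2 8.87 ± 0.69 SE, adjusted p = 8.45e-10). The spread among the 4 macrophage libraries was small beside that gap. C1qb and C1qc were 132-fold and 325-fold higher, at means of 6169 ± 1112 and 5371 ± 924 CPM. C3ar1, the receptor for the anaphylatoxin C3a, was 33.3-fold higher (adjusted p = 1.09e-06), C4b 11.5-fold and Cfb, factor B of the alternative pathway, 14.6-fold (adjusted p = 0.00232 and 1.07e-05). Of 19 genes tested 9 were higher (8 with ERCC scaling) and 2 lower, with a median log2 difference of 3. The lower ones were C3, the central component (344 ± 197 against 909 ± 275 CPM, adjusted p = 0.0127), and Itgb2, a chain of the complement receptors CR3 and CR4 (adjusted p = 0.0399). C3 lost its call without blood mouse 24 (adjusted p = 0.0699), and Itgb2 without macrophage mouse 23 or 24 or any blood library (adjusted p = 0.0585 to 0.116), and neither was called with ERCC scaling.

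Genes of lipid-associated macrophages, a state seen around lipid-rich debris, were higher in 15 of 24 and lower in 2, with a median log2 difference of 2.75, and 11 were higher and none lower with ERCC scaling. Gpnmb, a lysosomal and surface glycoprotein, had 3 counts in blood altogether and was at 431, 938, 125 and 963 CPM in macrophages, a ratio of 1837 (95% counting interval 628 to 8909). Spp1, osteopontin, was at 1358, 1064, 565 and 1967 CPM against 0 to 4.53 CPM (802-fold, adjusted p = 2.91e-07). Both were lowest in mouse 24. Trem2, the lipid-sensing receptor through which this state is induced, was 8.21-fold higher (494 ± 137 against 60.2 ± 14.9 CPM, adjusted p = 1.08e-06), whereas its signalling adaptor Tyrobp was 1.86-fold lower (1154 ± 185 against 2149 ± 427 CPM, adjusted p = 0.00935). Apoe, the lipid carrier, was at 4340 to 9972 CPM and was not called (3434 ± 806 CPM in blood, adjusted p = 0.136). Ch25h, which makes 25-hydroxycholesterol, was at 32.1 to 75.4 CPM with no count in blood (at least 154-fold higher). Lgals3, galectin 3, was 1.59-fold lower, a call lost without macrophage mouse 24 or blood mouse 23 (adjusted p = 0.0567 and 0.0623). With the mouse number as a block the lower members came to 4.

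Lysosomal genes were higher in 13 of 30 and lower in none (median 0.76), and 4 were called with ERCC scaling. Ctsd, the aspartic protease cathepsin D, led them, at 708, 760 and 575 CPM in blood and 9981, 7151, 10268 and 7940 CPM in macrophages (13-fold, adjusted p = 1.17e-10). Lgmn, legumain, was 10.8-fold higher (1596 ± 309 against 148 ± 16.7 CPM, adjusted p = 5.25e-08). Ctsb and Ctsz were 1.85-fold and 2.62-fold higher (adjusted p = 0.00158 and 0.000126), and Grn, progranulin, 2.34-fold (adjusted p = 0.00049). Tfeb, the transcription factor that coordinates lysosome formation, was not called (53.1 ± 17.7 against 115 ± 15.6 CPM, adjusted p = 0.0873) and passed as lower in a fit of the 7 libraries alone (adjusted p = 0.0133) and with a block of the 3 shared mice (adjusted p = 0.043). Among 17 efferocytosis and scavenger genes tested, 6 were higher and 1 lower (median 0.09), with 4 and 0 under ERCC scaling and 2 lower with either block. Axl, a TAM receptor like MERTK, was 9.79-fold higher (939 ± 452 against 95.3 ± 38.7 CPM, adjusted p = 5.87e-07) and its ligand Gas6 was at 11.8 to 54.4 CPM with no count in blood (at least 98.8-fold), while Scarb1, the HDL receptor, was 8-fold lower (90.2 ± 37.8 against 721 ± 107 CPM, adjusted p = 8.93e-06).

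**Figure D3:**
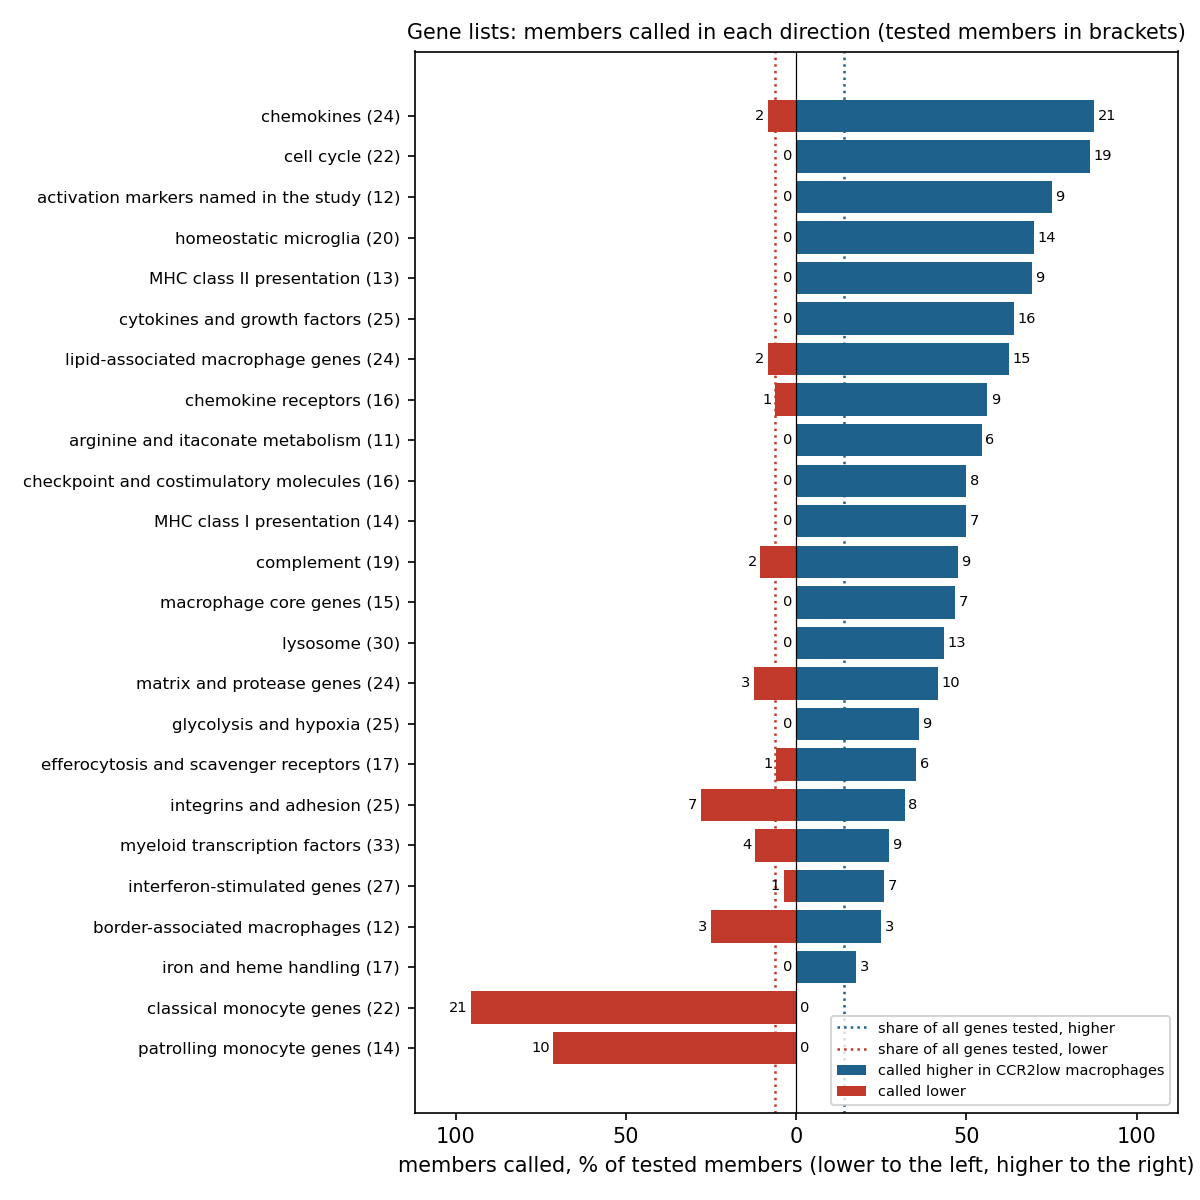
Share of the tested members of each list of functions or myeloid states called higher (blue, right) or lower (red, left) in GFPneg CCR2low macrophages, in percent, with the number of called members at each bar end and of tested members in brackets. Dotted lines mark 14.1% and 6.09%, the shares over all tested genes, and marker lists of other cell types are not drawn. Chemokines (21 of 24) and cell cycle genes (19 of 22) have the highest shares drawn on the right, and the monocyte lists (21 of 22 and 10 of 14) the highest on the left.

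Of the chemokines, the secreted proteins that direct leukocyte movement, 21 of 24 were higher and 2 lower. The median log2 difference was 7.54, or 5.63 with each gene at 0 in blood set to its lower bound, and 13 of the 24 had no count in any blood library. With ERCC scaling 17 were higher and none lower. Before the values, the promoters of Cxcl1, Cxcl2 and Cxcl3, neighbouring genes for neutrophil attractants, are shown because all 3 hold the same NF-kappaB-type element GGGAATTTC (capitals), the factor family through which inflammatory signals act on them. They are the 250 bases before each start in RefSeq, build GRCm38.p6: Cxcl1 at chr5:90890995-90891244 on the plus strand, Cxcl2 at chr5:90903649-90903898 on the plus strand and Cxcl3 at chr5:90785851-90786100 on the plus strand. Of 17 chemokines with a listed promoter, 4 held the letters on either strand, the other being Cxcl9, against 0.234% of all 32851 promoters of that length. The match begins 71, 97 and 73 bases before the start in Cxcl1, Cxcl2 and Cxcl3.
Cxcl1: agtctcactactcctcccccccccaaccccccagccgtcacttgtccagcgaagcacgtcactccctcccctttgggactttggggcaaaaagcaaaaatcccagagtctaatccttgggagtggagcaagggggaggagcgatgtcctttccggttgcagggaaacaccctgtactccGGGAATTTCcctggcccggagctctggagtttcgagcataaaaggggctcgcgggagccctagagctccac
Cxcl2: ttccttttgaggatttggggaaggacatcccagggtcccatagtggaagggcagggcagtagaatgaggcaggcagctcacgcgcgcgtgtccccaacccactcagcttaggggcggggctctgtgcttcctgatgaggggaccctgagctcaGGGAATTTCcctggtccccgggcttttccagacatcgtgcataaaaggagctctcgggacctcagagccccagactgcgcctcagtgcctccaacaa
Cxcl3: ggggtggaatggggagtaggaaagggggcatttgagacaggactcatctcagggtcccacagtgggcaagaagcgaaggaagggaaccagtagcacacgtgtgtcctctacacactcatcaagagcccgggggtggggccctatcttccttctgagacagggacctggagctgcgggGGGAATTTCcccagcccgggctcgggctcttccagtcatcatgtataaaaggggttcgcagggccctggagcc

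All 3 of these genes had no count in blood and were highest in the macrophages of mouse 26. Cxcl2 was at 241, 113, 173 and 749.96 CPM in mice 22, 23, 24 and 26 (at least 856-fold higher, adjusted p = 7.34e-05). Cxcl1 was at 75.8, 13.2, 22.2 and 405 CPM (at least 346-fold, adjusted p = 0.0159), and lost its call without any of the 3 blood libraries (adjusted p = 0.0538 to 0.0788). Cxcl3, at 2.28 to 28.3 CPM, was the chemokine that was not called (adjusted p = 0.142), and passed with the mouse number as a block (adjusted p = 0.011).

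The ligands of CCR2 were higher. Ccl12 (chr11:82101845-82103400, plus strand) had no count in blood and was at 613, 463, 699.5 and 454 CPM in macrophages, at least 1494-fold higher. Ccl7 (chr11:82045712-82047525, plus strand) was at 212, 167, 169 and 296 CPM, also with no count in blood (at least 565-fold). Ccl2 was 50-fold higher (234 ± 54 against 4.23 ± 3.47 CPM, adjusted p = 3.71e-08). The transcripts for these ligands were high in the same libraries in which their receptor Ccr2 was 28.8-fold lower. The sort selected for little CCR2 reporter, so the low Ccr2 was set by the gate. Which of the sorted cells held the ligand transcripts was not tested. Ccl8, at 123 to 555 CPM with no count in blood, was at least 775-fold higher.

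The inflammatory chemokines Ccl3, Ccl4 and Ccl5 were 121-fold, 435-fold and 12.1-fold higher (adjusted p = 3.41e-06, 1e-09 and 0.0004), and Ccl4 reached 534 to 894 CPM. The interferon-induced ligands of CXCR3 were higher too, Cxcl9 by 68.9-fold (297 ± 85.1 against 4.30 ± 4.37 CPM) and Cxcl10 by 12.3-fold (379 ± 66.3 against 30.2 ± 20.5 CPM). Cxcl16, the membrane-bound ligand of CXCR6, was at 571 to 1053 CPM (43.6-fold, adjusted p = 3.36e-07). Cxcl13, the B cell attractant, was at 94.1, 111.8 and 135 CPM in mice 22, 23 and 24 and at 13.9 CPM in mouse 26, with no count in blood (at least 238-fold). The 2 lower chemokines were Ccl6 and Ccl9, which blood monocytes expressed at 2017 to 2974 and 1087 to 1319 CPM: they were 3.45-fold and 6.95-fold lower (adjusted p = 0.00556 and 0.00289).

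Among chemokine receptors 9 of 16 were higher and 1, Ccr2, lower (median log2 difference 3.01), with 2 higher under ERCC scaling and 5 without blood mouse 23 or 24. Ccrl2, an atypical receptor that binds chemerin without signalling, was at 656, 348, 590 and 1484 CPM against 9.66 to 17 CPM (59.2-fold, adjusted p = 6.91e-08). Ccr1, a myeloid receptor for CCL3 and CCL5, was 2.88-fold higher (adjusted p = 0.00069). Ccr7, Cxcr6 and Cxcr3 are typical of lymphocytes or dendritic cells: Ccr7 was at 177 to 336 CPM and Cxcr6 at 139 to 252 CPM (12.3-fold and 16.3-fold higher). Cxcr3 lost its call without macrophage mouse 23 or any blood library. All 13 tested T and NK cell markers were higher, and their sum was 1988 to 3615 CPM in CCR2low macrophages against 48.9 to 286 CPM in blood, 1236 to 2600 CPM in GFPneg glioma monocytes and 1196 to 3593 CPM in GFPneg CCR2high macrophages. In blood 1 of the 13, Ncr1, was at 0. Cd3e, a chain of the T cell receptor complex, was at 114 to 229 CPM against 9 to 31.2 CPM (10.5-fold), and Gzmb, the granzyme of cytotoxic lymphocytes, at 204 to 784 CPM against 0 to 2.27 CPM (364-fold, adjusted p = 4.33e-06). The part of T and NK cells in the receptor levels, in Ccl5, which they also make, and in Tnfrsf4, the T cell costimulatory receptor OX40 at 149.7 to 249 CPM with no count in blood, was not tested.

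Cytokines and growth factors were higher in 16 of 25 tested genes and lower in none (median log2 difference 3.94, or 3.68 with the bounds), and 9 were higher with ERCC scaling, Il1rn and Tnf not among them. Il1b was at 147, 73.3 and 46.5 CPM in blood and at 1328, 445, 741 and 2179 CPM in macrophages (13.2-fold, adjusted p = 4.23e-05). Il1a (chr2:129299610-129309972, minus strand), the membrane-associated interleukin 1, had no count in blood and 178 to 891 CPM in macrophages (at least 1446-fold), and Il1rn, the antagonist of both, was 11.5-fold higher (497 ± 165 against 43.3 ± 9.30 CPM, adjusted p = 7e-05). Agonists and antagonist were thus higher in the same libraries. Osm, oncostatin M, was 58.7-fold higher (488 ± 185 against 8.37 ± 2.87 CPM, adjusted p = 7.19e-07) and Tnf 20.6-fold (adjusted p = 0.000705). Il6, Il10 and Il12b had no count in blood and were called higher at 1.82 to 9.09, 6.15 to 36.3 and 0.473 to 18.7 CPM. Tgfb1 was at 28.9 to 160 CPM in macrophages and 273 to 328 CPM in blood, without overlap, and was not called (adjusted p = 0.265). It passed as lower in a fit of the 7 libraries alone (adjusted p = 0.0301) and with a block of the 3 shared mice (adjusted p = 0.0116).

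Transcripts induced by tissue dissociation and heat shock stood higher alongside: 12 of 21 were called higher and none lower, and 2 with ERCC scaling. Their sum was 8298 to 13600 CPM in CCR2low macrophages, 3932 to 4550 CPM in blood and 19780 to 28510 CPM in GFPneg glioma monocytes, which went through the same digestion. Fos was at 1693 to 2981 CPM against 282 to 661 CPM (5.23-fold, adjusted p = 7.24e-05), while the heat-shock gene Hspa1a was not called (adjusted p = 0.424). The part of digestion in the chemokine and cytokine levels was not tested.

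Of 11 tested genes of arginine and itaconate metabolism 6 were called higher, or 4 with ERCC scaling. Arginine metabolism sets the choice between nitric oxide and polyamines in macrophages, and called genes lay on both of these branches. Arg1 (chr10:24915221-24927484, minus strand), arginase 1, had no count in blood and was at 177, 685, 290 and 1243 CPM in mice 22, 23, 24 and 26 (at least 1604-fold, adjusted p = 6.16e-06). Nos2, inducible nitric oxide synthase, also had no count in blood and was at 25.8, 20.3, 1.89 and 148 CPM (at least 131-fold, adjusted p = 0.00235). Both were highest in mouse 26, and the order of the other mice differed between them. Irg1, which makes itaconate, had 2 counts in blood and 135 to 212 CPM in macrophages, a ratio of 617.9 (95% counting interval 171 to 5107). The transporter Slc7a2 was at least 179-fold higher. Among 12 genes that the study named as markers of activation, 9 were higher and none lower, or 4 with ERCC scaling. Nos2, Tnf, Il1b and Cd86, linked to classical activation, were among the 9, and Tnf and Cd86 lost their calls with that scaling (adjusted p = 0.0821 and 0.0977). Of the genes linked to alternative activation Arg1 was called, while Mrc1 and Il4ra, the interleukin 4 receptor alpha chain, were not (adjusted p = 0.0574 and 0.136). Both passed in a fit of the 7 libraries alone, Il4ra at an adjusted p of 0.0473. Mrc1 also passed with the DESeq2 Wald test and with either block. The study's own DESeq2 comparison of Ly6Chigh blood monocytes with CCR2low brain macrophages called Mrc1 as well. The study named this list in describing these samples, so it is not independent evidence of a direction.

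Of 16 checkpoint and costimulatory genes tested, 8 were higher and none lower (median 1.84), 2 of them with ERCC scaling. Cd274, encoding PD-L1, was at 232, 120.2, 89.8 and 249 CPM against 5.82 to 19.8 CPM (12.6-fold, adjusted p = 6.75e-05), and Pdcd1lg2, encoding PD-L2, was 63.5-fold higher (39.4 ± 15.8 against 0.482 ± 0.445 CPM, adjusted p = 6.2e-05). Cd86, the CD28 ligand, was 4.69-fold higher (adjusted p = 1.44e-05), and its relative Cd80 was not called at 9.18 to 14.7 CPM against 1.75 to 4.83 CPM (adjusted p = 0.0899, or 0.0441 with the mouse number as a block). Cd80 also passed with the DESeq2 Wald test and in a fit of the 7 libraries alone, and the study's own DESeq2 comparison called it. Entpd1, encoding the ATP-degrading CD39, was 4.91-fold higher (adjusted p = 0.000129) and Lgals9, galectin 9, 2.24-fold (adjusted p = 0.00253). Sirpa, the receptor for the don't-eat-me signal CD47, was not called (596 ± 136 against 715 ± 156 CPM, adjusted p = 0.588).

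Transcription factors moved in both directions around a median of 0.11, with 9 of 33 higher and 4 lower. Bhlhe40 was 8.10-fold higher (527 ± 156 against 65.1 ± 34.2 CPM, adjusted p = 6.52e-06), and Maf, which helps to hold macrophages in a differentiated state, 7.08-fold (adjusted p = 0.000501). Irf5 was 2.49-fold lower (adjusted p = 0.000875) and Klf13 8.47-fold lower (adjusted p = 0.000138). Spi1, encoding PU.1, and Irf8, both required for the myeloid lineage, were not called (adjusted p = 0.222 and 0.704), and Spi1 passed as lower in a fit of the 7 libraries alone (adjusted p = 0.00498) and with a block of the 3 shared mice (adjusted p = 0.0208). With ERCC scaling 4 members were higher and 1 lower, and Bhlhe40, Maf and Irf5 were not called (adjusted p = 0.1, 0.2085 and 0.4305). The lower members numbered 7 with the mouse number as a block and 2 without macrophage mouse 23 or blood mouse 24.

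Interferon-stimulated genes were higher in 7 of 27 and lower in 1 (median 0.60), and the count of higher ones was 4 without blood mouse 22 or 23, 1 with ERCC scaling and 11 with the mouse number as a block. Bst2, tetherin, was 4.53-fold higher (448 ± 84 against 98.8 ± 23.3 CPM, adjusted p = 8.39e-08), Gbp2 5.07-fold and Isg15 4.04-fold (adjusted p = 0.000114 and 0.00137). Irf7 was not called (adjusted p = 0.229) and passed with the block (adjusted p = 0.0148). Irf9 was 1.72-fold lower (adjusted p = 0.0239), a call lost without macrophage mouse 23 or blood mouse 22 (adjusted p = 0.0642 and 0.0729).

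Matrix and protease genes were higher in 10 of 24 and lower in 3 (median 2.62, or 2.30 with the bounds). The collagenase Mmp13 was at 455, 85.1, 133 and 307 CPM against 0 to 0.878 CPM (482-fold, adjusted p = 1.66e-08), the macrophage elastase Mmp12 267-fold and the membrane-bound Mmp14 75.3-fold higher (adjusted p = 8.37e-06 and 0.000139). Mmp2, a gelatinase, had 3 counts in blood and 97.8 to 173 CPM in macrophages, a ratio of 326 (95% counting interval 111 to 1581). The neutrophil collagenase Mmp8 went the other way, at 6.15 to 57.2 CPM against 256 to 836 CPM (23.2-fold lower, adjusted p = 0.00014). Serpine2, a protease inhibitor of the nervous system, at 157 to 388 CPM with no count in blood (at least 658-fold), and Vcam1 (chr3:116109949-116129688, minus strand), an adhesion molecule for integrin VLA-4, at 148 to 615 CPM with none (at least 775-fold), completed the 10 higher genes with the widest gap together with Sparc, Olfml3, Ccl12, Ccl7, Il1a, Arg1, Tnfrsf4 and Ighg2c.

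Integrins and adhesion genes divided, with 8 of 25 higher and 7 lower (median -0.26), or 5 and 1 with ERCC scaling. The tetraspanins Cd81, Cd63 and Cd9 were higher, while Cd37 and Cd53 were not called: Cd81 was at 1445 to 2904 CPM against 7.68 to 48.2 CPM (98.2-fold), Cd63 at 989.8 to 1281 CPM against 0 to 8.50 CPM (358-fold) and Cd9 at 685 to 1272 CPM against 16.3 to 103 CPM (19.1-fold, adjusted p = 5.25e-08). The integrin chains that carry leukocytes across vessel walls were lower, Itga4 by 6.4-fold (66.2 ± 21.3 against 423 ± 254 CPM, adjusted p = 0.000128) and Itgb7 by 3.98-fold (adjusted p = 0.00433), as was Cd44, the hyaluronan receptor, by 3.89-fold (184 ± 53.4 against 713 ± 169.6 CPM, adjusted p = 1.03e-05). With ERCC scaling none of these 3 was called (adjusted p = 0.0737, 0.22 and 0.205).

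Cell cycle genes were higher in 19 of 22 tested and lower in none (median 4.54), 11 of them with ERCC scaling. Stmn1, a microtubule regulator of dividing cells, was at 85.5, 139.8, 66.2 and 128 CPM against 1.32 to 2.27 CPM (60.4-fold, adjusted p = 9.63e-10), Top2a, topoisomerase II alpha, at 46.3 to 191 CPM against 0 to 3.40 CPM (133-fold, adjusted p = 0.000106), and Birc5, survivin, at 39.2 to 91.4 CPM with no count in blood (at least 184-fold). Pcna, the sliding clamp of DNA replication, was 3.23-fold higher (122 ± 14.7 against 37.7 ± 3.21 CPM, adjusted p = 2.26e-06). The summed list was 1425 to 2425 CPM in macrophages and 374 to 465 CPM in blood. T cells in a sort can carry these transcripts too, and their part was not tested. Mki67, the proliferation antigen, was lowest in macrophage mouse 24 at 6.14 CPM with 37.3 to 42.8 CPM in the others, and lost its call without blood mouse 22 or 24 (adjusted p = 0.096 and 0.1).

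Glycolysis and hypoxia genes were higher in 9 of 25 and lower in none (median 1.37), 1 of them with ERCC scaling. Ldha, lactate dehydrogenase A, Gapdh and Aldoa were 2.65-fold, 2.61-fold and 2.22-fold higher (adjusted p = 7.02e-05, 3.12e-05 and 0.000133), with no overlap between populations. Vegfa, the vascular growth factor, had no count in blood and 17.2 to 36.3 CPM in macrophages (at least 68.2-fold). Hif1a, the hypoxia-inducible factor itself, was not called (338 ± 67.1 against 226 ± 37.5 CPM, adjusted p = 0.352). Of iron handling genes 3 of 17 (17.6%) were higher, near the 14.1% of all tested genes, and none was lower. Their median log2 difference was 0.01. With ERCC scaling 1 was higher, and with either block 2 were lower. Tfrc, the transferrin receptor, had 2 counts in blood and 14.4 to 51.4 CPM in macrophages (ratio 141, 95% counting interval 38.7 to 1169).

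**Figure D4:**
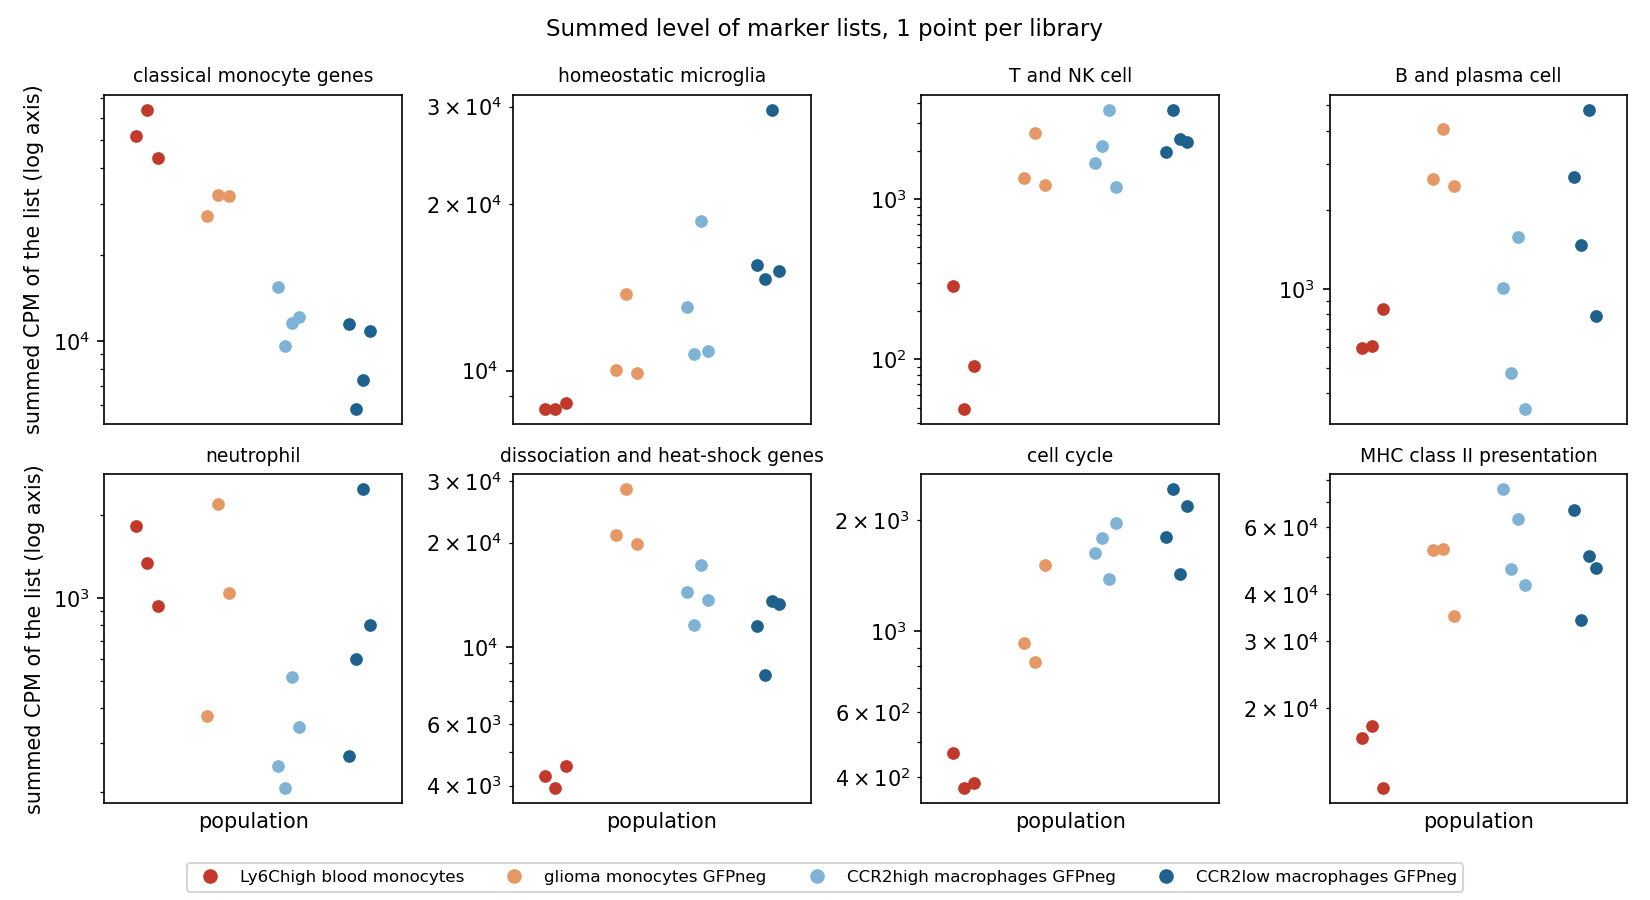
Summed CPM of 8 gene lists in each library (log y axis, 1 point per library) for Ly6Chigh blood monocytes, GFPneg glioma monocytes, GFPneg CCR2high macrophages and GFPneg CCR2low macrophages, left to right. The T and NK cell sum is 1988 to 3615 in CCR2low macrophages and 48.9 to 286 in blood, and the microglia and neutrophil sums are highest in CCR2low mouse 24.

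Markers of other cells differed in size and sign. Neutrophil genes were called higher in 1 (Retnlg, a call lost without blood mouse 23 or 24 or with ERCC scaling) and lower in 2 of 11 tested, and their sum was 269 to 2476 CPM in macrophages, with the highest value in mouse 24, against 932 to 1827 CPM in blood. In mouse 24 S100a8 was at 478 CPM and Ngp at 387 CPM, with 7.46 to 111 and 0 to 68.4 CPM in the other macrophage libraries. Astrocyte markers were called in 5 of 6 (2 with a block of the 3 shared mice) but summed to 114 to 167 CPM in macrophages and 3.40 to 4.39 CPM in blood. Of oligodendrocyte markers 4 of 6 were higher (2 without blood mouse 22 or with ERCC scaling) and 1, Mbp, lower. Their sum ran the other way from the count, at 353.3 to 471.7 CPM in macrophages against 465 to 818.9 CPM in blood. Dendritic cell markers were higher in 4 of 12 (2 with ERCC scaling) and lower in 2 (1 with ERCC scaling or without macrophage mouse 22, 23 or 26 or blood mouse 24), with sums of 731 to 1054 CPM against 179 to 369 CPM. Endothelial markers were called higher in 3 of 5 (Ly6c1, Kdr and Cldn5), with Cldn5 at 0 to 36.3 CPM and no count in blood. Ly6c1 was not called with ERCC scaling, Cldn5 was not called without any 1 of the blood libraries, and none of the 3 could be tested in the block of the 3 shared mice. None of the 2 neuron and 4 erythroid genes tested was called, at sums of at most 27.5 and 33.1 CPM in macrophages.

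CCR2low macrophages were also compared with both other GFPneg populations of the glioma, and these comparisons share the macrophage libraries with the one above. Against GFPneg glioma monocytes, the Ly6Chigh cells sorted from the same tumors, 16 genes were higher in CCR2low macrophages (0.138%) and 110 lower (0.951%), with 973 genes at an unadjusted p under 0.05. Of the 704 genes lower than in blood, 62 were lower than in glioma monocytes as well. Ly6c2 was at 2848 to 3712 CPM in glioma monocytes and 92.5 to 169 CPM in CCR2low macrophages (log2 -4.75, adjusted p = 7.27e-06), above its level in blood (973 to 1356 CPM). Ccr2 was at 579.8 to 949.9 CPM there, between blood and macrophages (log2 -3.43, adjusted p = 8.44e-05). Plac8, Hp and Chil3, a secreted chitinase-like protein, were lower than in glioma monocytes as well, by 3.78, 4.28 and 4.31 on the log2 scale.

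The genes higher than in glioma monocytes included Tmem119 (log2 1.58, adjusted p = 0.0259), Olfml3 (1.44), Ccl12 (1.24), Mmp13 (2.15), Mmp2 (1.94) and Cadm1, a cell adhesion molecule at 81.0 to 134 CPM with no count in blood (2.06, adjusted p = 0.0027). Of the 1628 genes higher than in blood, 15 were higher than in glioma monocytes too, and 15 were lower. Among the latter were Isg15, at 129 to 354 CPM in CCR2low macrophages, 548 to 1248 CPM in glioma monocytes and 49.9 to 64.6 CPM in blood, and Il1rn, at 394 to 744, 1419 to 3056 and 33.4 to 51.8 CPM. Of the 27 interferon-stimulated genes, 12 were called against glioma monocytes, and those named here (Isg15, Irf7 and Gbp2) were lower by 2.03, 2.07 and 1.53 on the log2 scale. The count of 126 was 263 with the mouse number as a block, 274 with DESeq2, 1 with ERCC scaling, and 47, 67, 74 and 65 without glioma monocyte mouse 24 or 22 or macrophage mouse 23 or 24.

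Against GFPneg CCR2high macrophages no gene was called (0%) by edgeR, with 274 genes at an unadjusted p under 0.05 and a smallest adjusted p of 0.608, while DESeq2 called 8 and the block called 3. Ccr2, by whose reporter these macrophages were split, was at 147 to 325 CPM in CCR2high and 32.6 to 113 CPM in CCR2low macrophages without overlap (adjusted p = 0.69). Lyz1, another lysozyme gene, was at 10.1 to 59.8 CPM against 0 to 2.87 CPM (adjusted p = 0.61). The microglial Tmem119 was at 535 to 979 CPM in CCR2high and 709 to 2246 CPM in CCR2low macrophages. A p above the threshold does not show that the 2 macrophage populations were alike.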

How the data were processed

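RNA of cells sorted from blood and glioma-bearing brain was sequenced in 30 libraries, of which 1 was left out because under 6000 of its genes had 5 reads or more. The deposited values are raw read counts per gene symbol, made by the authors with STAR on mm10, removal of duplicates with Picard 1.8.4, and htseq-count in intersection-strict mode on the GRCm38.p3 annotation. The strand setting is not given in the sources used here, so reads of overlapping or antisense genes cannot be separated, and no molecular identifiers were used. Libraries were made with a poly-A based low-input kit, with 92 ERCC spike-ins.

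Where both libraries of the same sample passed, their counts were summed into a single replicate. No such sum was among the 7 compared libraries. The counts of the resulting 28 replicates of 8 populations were fitted together with edgeR 4.0.16 (robust quasi-likelihood, TMM scaling, filterByExpr, no block, under R 4.3.3). The spike-ins and the summary lines of the counter stayed out of library sizes: reads outside features were 7.76% to 12.5% and ambiguous reads 1.68% to 1.8% in the 7 compared libraries. CPM are counts over TMM-scaled library sizes, and a count of 0 in a whole population was given a floor of 3 counts, equal to 0.373 CPM in Ly6Chigh monocytes and 0.296 CPM in CCR2low macrophages. Counting intervals are exact 95% intervals. Samples were grouped by the cell type in their labels and numbered by mouse. The mouse number marks a shared animal, so the samples are paired for mice 22, 23 and 24. Deviations from the population means correlated at -0.0346 to 0.0157 for same-numbered samples and at -0.11 to 0.147 for differently numbered ones. Alternatives were DESeq2 1.42.0 size factors and Wald test, ERCC scaling, a fit of the 7 libraries only, other count filters, the mouse number as a block, and each library left out.

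Genes named are the sort markers, the 10 called genes per direction with the widest gap between libraries and at least 20 CPM in the higher population, and for each gene list the 3 called members per direction with the highest mean CPM (2 where none was called). Further list members were named after their values were seen, and some genes that meet the rule are not reported here. The members and lists were chosen with earlier results of these data known. Positions come from GENCODE vM21 on GRCm38, which held 555 of 558 symbols, and promoter sequences from RefSeq.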

Additional observations from a re-analysis of the deposited data

Results flagged for a closer look

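Among 217 genes named by the rule or in the text, 17 (7.83%) had 1 CCR2low macrophage library set apart from the other three by a gap that exceeded the 95% critical value of Dixon's ratio (gap over range), where chance alone gives about 1 in 20. Mouse 26 was the library set apart in 7 of them, mouse 22 in 4 and mice 23 and 24 in 3 each. Mouse 26 was high for Il1rn at 744 CPM, Mrc1 at 374 CPM, Pf4 at 160 CPM, Stab1 at 398 CPM and Ptgir at 1.07 CPM. It was low for Cst7 at 158 CPM and Cxcl13 at 13.9 CPM. Mouse 24 was high for Trem2 at 699 CPM and low for Irf4 at 3.78 CPM and Mki67 at 6.14 CPM. Mouse 22 was low for Ccl17 at 8.04 CPM, Chil3 at 3.44 CPM and Igf1 at 25.8 CPM and high for Cd300lg at 0.574 CPM. Mouse 23 was low for Cd86 at 235 CPM and high for Hmgb2 at 243 CPM and Arhgef37 at 0.911 CPM. For Arhgef37, Cd300lg and Ptgir the other libraries had no count, which fixes the ratio at 1 whatever the remaining value.

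In the direct comparison of CCR2low macrophages with GFPneg glioma monocytes, 22 of these genes differed by edgeR, 15 of them lower in the macrophages. On the log2 scale the differences were -4.75 for Ly6c2 and for Lyz1, -4.31 for Chil3, -4.28 for Hp, -3.78 for Plac8, -3.43 for Ccr2 and -1.77 for S100a6. They were -2.07 for Il1rn and for Irf7, -2.03 for Isg15, -1.53 for Gbp2, -1.39 for Cd44 and -1.32 for Fcgr1. Cd300lg and Serpinb10, at 3 counts or fewer in the macrophages, averaged 13.5 and 3.91 CPM in glioma monocytes. The higher genes were Mmp13 at 2.15, Cadm1 at 2.06, Mmp2 at 1.94, Tmem119 at 1.58, Stmn1 at 1.54, Olfml3 at 1.44 and Ccl12 at 1.24. Adjusted p ran from 7.27e-06 for Ly6c2 and Plac8 to 0.0406 for Cd300lg.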

How the results depend on the processing

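The 1628 higher genes numbered 504 with ERCC scaling, 515 with a filter of 10 counts in every compared library, which tests fewer genes, and 1039 to 1519 with 1 library left out. They rose to 1792 with the block over all populations and to 2200 with the DESeq2 Wald test. The 704 lower genes numbered 87 with ERCC scaling, 1118 with the 7 libraries alone, and 499 to 698 with 1 library left out. The share of calls that were higher, 69.8%, was 51% with that filter and 85.3% with ERCC scaling. The 126 genes against glioma monocytes numbered 1 with ERCC scaling, 274 with DESeq2 and 47 to 110 with 1 library left out, and the count of 0 against CCR2high macrophages was 8 with DESeq2. The causes were not tested.

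With the mouse number as a replicate block over all populations, 263 genes were called against glioma monocytes and 3 against CCR2high macrophages. A block of the 3 shared mice, fitted to the 2 populations alone, called 1059 lower genes and put the share of higher calls at 55.6%. Of the 217 genes named by the rule or in the text, the block over all populations added 7 calls (Cd80, Cst3, Cxcl3, Folr2, Irf7, Mrc1 and Nr4a1) and changed no other call. The 3-mouse block lost 4 (Fcgr3, Irf9, Klf4 and Mki67) and added 5 (Mrc1, Nr4a1, Spi1, Tfeb and Tgfb1) among the 205 it tested. The fit of the 7 libraries alone lost Klf4 and Lgals3 and added 10 (those 5, Apoe, Cd80, Cst3, H2-DMa and Il4ra) among 208. The DESeq2 Wald test added 5 (Cd80, Cst3, Cxcl3, Folr2 and Mrc1) and lost none.

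None of the 217 changed direction after a call in any alternative. Of 184 called, 106 were called in every alternative that tested them, and ERCC scaling lost 75, which include, of the genes described above, Aldoa, B2m, Bhlhe40, Bst2, C3, Ccl6, Ccl9, Ccr1, Ccr7, Cd14, Cd274, Cd44, Cd74, Cd79a, Cd86, Clec10a, Clec12a, Ctsb, Ctsz, Cxcl1, Cxcl10, Cxcr3, Cxcr6, Entpd1, Fcgr1, Fcgr3, Fcgr4, Fn1, Fos, Gapdh, Gbp2, Grn, H2-Aa, H2-Ab1, H2-K1, H2-Ob, Il1rn, Irf5, Irf9, Isg15, Itga4, Itgal, Itgb2, Itgb7, Ldha, Lgals3, Lgals9, Ly6c1, Lyz2, Maf, Mki67, Pcna, Ptprc, Retnlg, Scarb1, Tnf and Tyrobp. The spike-ins took 0.29% to 1.26% of reads in the 7 compared libraries. The ERCC fit held all 28 replicates, and the share was higher in some of the others. It was 13.3% in Ly6Clow blood monocytes of mouse 23 and 5.16% in GFPpos glioma monocytes of mouse 24. The part of these libraries in the lost calls was not tested.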
